A study of Mus musculus with 10 samples.

Results

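DNA copy number was compared between 4 mouse ovarian tumors labelled positive for PAX8 and 4 labelled negative, which are 8 of the 10 samples of the study. Members were chosen by their PAX8 label alone, and every tumor with a label was kept. All 8 tumors arose in C57BL/6 mice after Cas9, guide RNA and Cre plasmids were electroporated into the epithelium of the fallopian tube, and their DNA came from fixed, paraffin-embedded tissue. PAX8-positive tumors 1 and 3 carried a deletion of Lkb1, the kinase encoded by Stk11, and positive tumors 2 and 4 had it intact. PAX8-negative tumors 2, 3 and 4 carried the Lkb1 deletion and negative tumor 1 had it intact. No other edited gene is named in the labels, and neither the guides nor the share of tumor cells in a block is given in the sources used here. Tissue free of tumor was not analysed here, so no background of normal DNA stands beside the values.

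PAX8 is a paired-box transcription factor that marks the secretory cells of the fallopian tube, and its protein is used by pathologists to recognise tumors of Müllerian origin. High-grade serous carcinoma, which is thought to start in that epithelium, is known for loss of p53 and for gains and losses over large parts of the genome. A copy number change can span a whole chromosome, a long part of one, or a short stretch around a few genes, and these classes are thought to arise in different ways.

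The values are log2 copy ratios of 59640 bins that lie on genes and together cover 1028 Mb of chromosomes 1 to 19 and X. A value of 0 is the level of the reference used, which is not given. Sequencing was shallow, with a mean bin depth of 1.44 ± 0.13 in the positive group against 1.84 ± 0.41 (SD, n = 4 per group, exact permutation p = 0.171). The spread between neighbouring bins was 0.23 ± 0.01 against 0.19 ± 0.05 on the log2 scale (SD, n = 4 each, exact permutation p = 0.2), so single bins are about as noisy as the changes sought. Bins were therefore joined into 345 segments, and a segment was called gained above a median log2 of 0.2 and lost below -0.2. Neighbouring segments called in the same direction made 1 event, and the 8 tumors held 123 events. An event was focal up to 5 Mb, chromosome-wide from a share of 0.5 of the measured length of its chromosome, and regional in between.

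**Figure D1:**
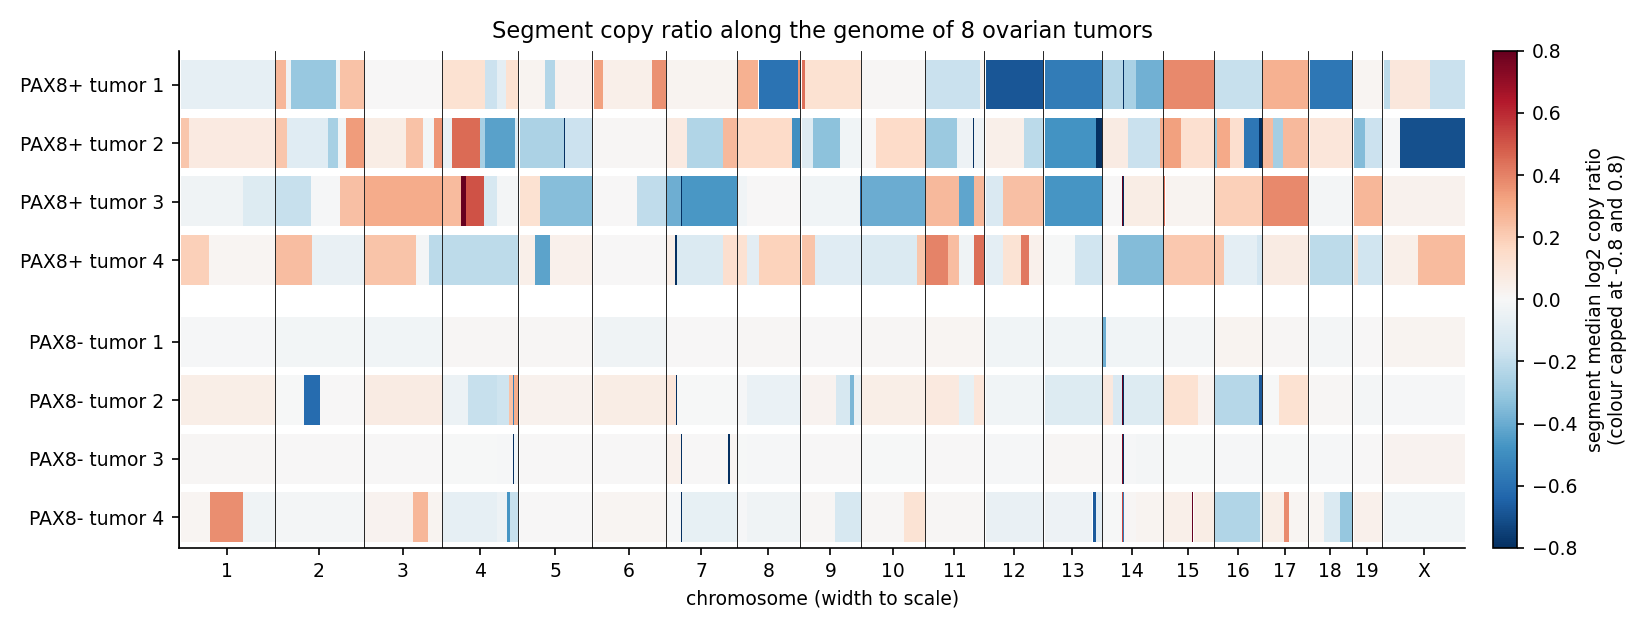
Median log2 copy ratio of each segment along the chromosomes, one line per tumor, with losses in blue and gains in red and colour capped at 0.8 in both directions. The 4 positive tumors are coloured over much of the genome, while negative tumors 1 and 3 hold no called segment over 5 Mb.

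By segments, the positive tumors differed from the negative ones in long events and not detectably in short ones. Chromosome-wide events numbered 8, 6, 10 and 7 in positive tumors 1 to 4 and 0, 1, 0 and 1 in negative tumors 1 to 4. Each positive tumor therefore held at least 6, each negative tumor at most 1, and the groups did not overlap. The means were 7.75 ± 1.71 and 0.5 ± 0.58 (SD, n = 4 each), and the permutation test, exact and two-sided, gave p = 0.0286. No smaller p is possible with 70 splits, and its Benjamini-Hochberg adjusted value over the 20 measures compared was 0.0714. With runs of 1 Mb windows in place of segments the difference was 3.25 events rather than 7.25 (exact permutation p = 0.171), and in covered bases 11.96 rather than 26.7 percentage points (exact permutation p = 0.143).

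Regional events numbered 8, 19, 4 and 8 in the positive tumors and 0, 4, 0 and 6 in the negative tumors. Positive tumor 3 had as many as negative tumor 2, so the groups overlapped, and the means of 9.75 ± 6.45 and 2.5 ± 3 (SD, n = 4 each) gave an exact permutation p of 0.0857. Positive tumor 2 stood highest, with events on both sides of zero along chromosomes 2, 4, 16 and 17.

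Focal events did not separate the groups. They numbered 2, 2, 8 and 2 in the positive tumors and 1, 8, 10 and 8 in the negative tumors. Positive tumor 3 lay among the negative tumors, negative tumor 1 lay below all positive ones, and the means of 3.5 ± 3 and 6.75 ± 3.95 (SD, n = 4 each) gave an exact permutation p of 0.371. With runs of windows the direction turned, to 31.2 more focal events in positive tumors (exact permutation p = 0.4). The penalty for a further segment grew with a tumor's bin noise, so a short step had to be larger to be called in a noisier tumor. That noise was 0.23, 0.24, 0.22 and 0.23 in positive tumors 1 to 4 and 0.26, 0.19, 0.16 and 0.16 in negative tumors 1 to 4. Its part in the focal counts was not tested.

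By length, chromosome-wide events covered 30.6%, 18.9%, 39.5% and 25.1% of covered bases in positive tumors 1 to 4, against 0%, 3.73%, 0% and 3.47% in negative tumors 1 to 4 (exact permutation p = 0.0286). Regional events covered 7.46%, 24.7%, 7.57% and 10.2% in the positive tumors, against 0%, 2.92%, 0% and 5.44% in the negative tumors. The groups did not overlap in either share. The exact permutation p of the regional share was 0.0286, but it was 0.0571 without positive tumor 2, whose removal lowers the difference from 10.4 to 6.31 percentage points, and 0.0571 to 0.0857 without any 1 negative tumor. The difference was 5.01 points at a threshold of 0.3 and 5.91 at 3 noise SDs (exact permutation p = 0.0857 for both), and 8.21 at 2 times the penalty (exact permutation p = 0.0571). Focal events covered 0.216% ± 0.162 of bases in positive tumors against 0.281% ± 0.167 (SD, n = 4 per group, exact permutation p = 0.571).

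**Figure D2:**
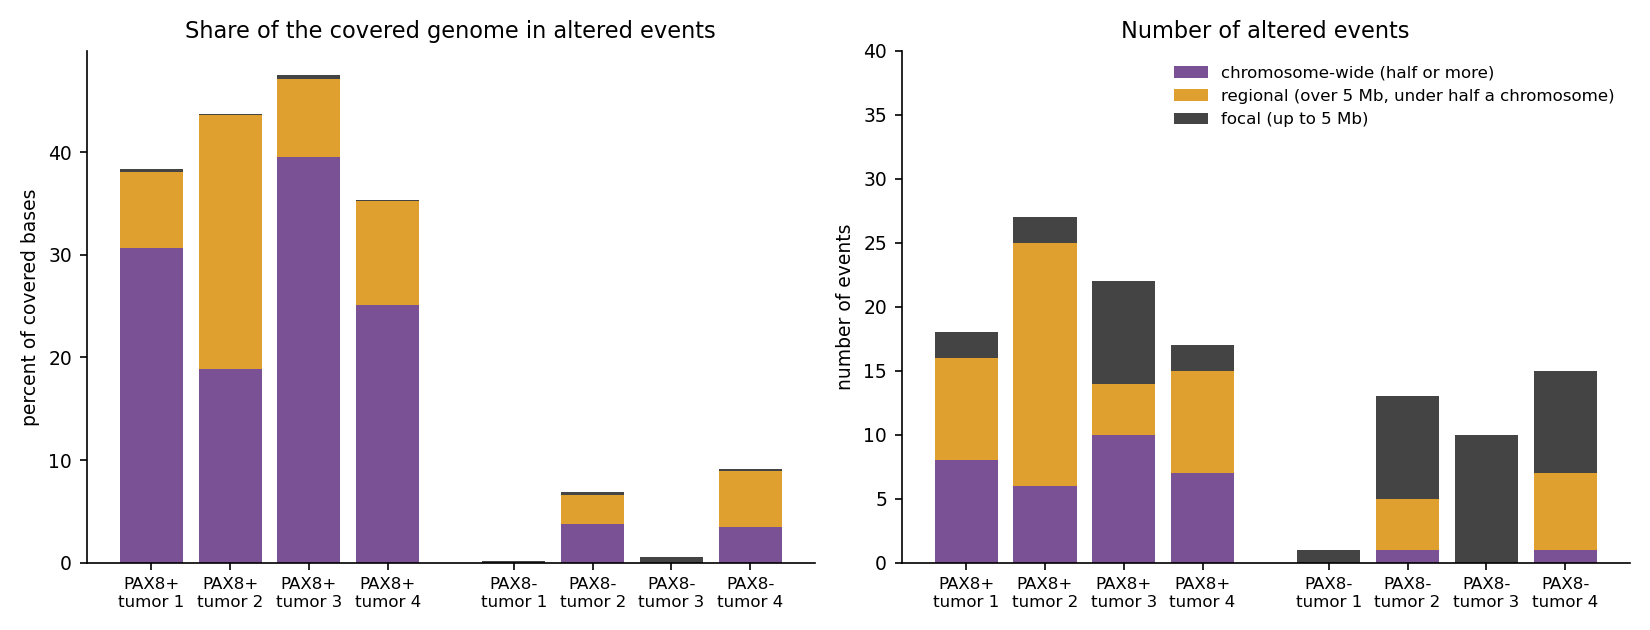
Share of covered bases (left, percent) and number of events (right) by size class, stacked for each of the 8 tumors. Chromosome-wide and regional events make up nearly all of the altered length in the positive tumors and in negative tumors 2 and 4, and focal events all of it in negative tumors 1 and 3.

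The altered genome of positive tumors was made of different classes from tumor to tumor. Chromosome-wide events held 79.8%, 43.2%, 83.3% and 71.1% of the altered bases of positive tumors 1 to 4. In positive tumor 2 regional events held more, 56.4%. In negative tumor 2 the chromosome-wide share was 54.3% and in negative tumor 4 it was 38.0%, in both from a single event. Focal events held at most 0.808% of the altered bases of any positive tumor, and they held 100% in negative tumors 1 and 3.

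Segments past the threshold covered 38.4%, 43.7%, 47.5% and 35.3% of bases in positive tumors 1 to 4 and 0.170%, 6.86%, 0.529% and 9.12% in negative tumors 1 to 4. Gains and losses both covered more of the genome in positive tumors. Gained segments covered 14.4%, 14.2%, 23.3% and 21.3% of bases in positive tumors 1 to 4 and 0%, 0.894%, 0.0255% and 3.87% in negative tumors 1 to 4 (exact permutation p = 0.0286). Lost segments covered 23.95%, 29.5%, 24.2% and 14.0%, against 0.170%, 5.97%, 0.504% and 5.25% (exact permutation p = 0.0286, or 0.0571 without negative tumor 1, 3 or 4). At a threshold of 3 noise SDs the difference in lost share was 13.3 rather than 19.96 points (exact permutation p = 0.0857). Positive tumor 4 was the only positive tumor with more gained than lost sequence. Of the 31 chromosome-wide events of positive tumors 13 were gains and 18 losses, of their 39 regional events 25 were gains and 14 losses, and of their 14 focal events 4 were gains and 10 losses. The negative tumors had 0 gains and 2 losses chromosome-wide, 5 and 5 regional, and 6 gains and 21 losses among focal events.

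Whole chromosomes accounted for 16 of the 31 chromosome-wide events of positive tumors, 6 in positive tumor 1, 1 in positive tumor 2, 6 in positive tumor 3 and 3 in positive tumor 4. Those of positive tumor 4, on chromosomes 4, 15 and 18, stood at -0.21, 0.21 and -0.21. They were just past the threshold of 0.2 and short of 3 noise SDs of that tumor, 0.25. The 31 chromosome-wide events fell on 16 chromosomes and spared 1, 6, 9 and 16. Chromosome 13 was lost from end to end in positive tumors 1, 2 and 3 at a log2 of -0.56, -0.53 and -0.47, and had no called segment in positive tumor 4. Chromosome 17 was gained in the same 3 tumors at 0.29, 0.26 and 0.38, over its whole length in positive tumors 1 and 3. These were the 2 changes found in 3 positive tumors, 7 were found in 2, and 11 in 1.

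The direction was not fixed for every chromosome. Chromosome 4 was gained over 54.1% of its length in positive tumor 3 and lost whole in positive tumor 4, at 0.47 and -0.21. Chromosome 12 was lost whole in positive tumor 1 and gained over 70.8% in positive tumor 3, at -0.68 and 0.24. Chromosome 11 was lost over 52.1% in positive tumor 2 and gained over 55.9% in both positive tumors 3 and 4. Chromosome X was lost over 80.3% in positive tumor 2, the deepest chromosome-wide loss at -0.70, and gained over 58.4% in positive tumor 4 at 0.25. The 2 chromosome-wide events of negative tumors were both losses of chromosome 16, at -0.26 over its whole length in negative tumor 2 and at -0.24 over 95.4% in negative tumor 4. No positive tumor had a chromosome-wide event there.

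Across all segments, 87.0% of covered bases were altered in at least 1 positive tumor and 12.7% in at least 1 negative tumor, and 20.4% were gained in one positive tumor and lost in another. Gains in at least 3 positive tumors covered 7.44% of bases and losses 5.11%. The same shares in negative tumors were 0.0250% and 0.128%. Likeness of whole profiles is given as a description. Over 536 windows of 5 Mb, which share their libraries and neighbours, the median Pearson correlation was 0.20 for the 6 pairs of positive tumors, 0.18 for the 6 pairs of negative tumors and 0.17 for the 16 pairs across groups.

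The spread of chromosome levels within a tumor, the SD of its 20 chromosome medians, was 0.28, 0.22, 0.23 and 0.14 on the log2 scale in positive tumors 1 to 4 and 0.02, 0.08, 0.01 and 0.07 in negative tumors 1 to 4. The groups did not overlap (exact permutation p = 0.0286), and the p was 0.0571 without negative tumor 1, 3 or 4. In negative tumors 1 and 3 all segments over 5 Mb lay between -0.03 and 0.04.

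Breakpoints, the places where the segment level of a chromosome steps by at least 0.2, numbered 21, 29, 24 and 22 in the positive tumors and 1, 21, 18 and 25 in the negative tumors. Negative tumors 2 and 4 lay within the positive range (exact permutation p = 0.257). Between segments over 5 Mb alone they numbered 14, 24, 9 and 18 against 0, 7, 0 and 10, with an overlap between positive tumor 3 and negative tumor 4 (exact permutation p = 0.0571). Most steps of negative tumors 2, 3 and 4 therefore bounded short segments, and positive tumor 3 combined 6 whole-chromosome events with few steps between long segments.

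Most focal events overlapped one of the same direction in another tumor by at least 50%. Of the 41 focal events 31 did so, 8 of 14 in positive and 23 of 27 in negative tumors, and they fell on 10 loci. As focal events, 7 of these loci were found in both PAX8 groups and 0 in positive tumors alone. Short segments that lie inside a longer event of the same direction are not counted as focal. There were 4 of them in positive tumors and 0 in negative tumors, and 3 of the 4 overlapped these loci, in positive tumor 1 on chromosome 14 from 44163170 to 44706456 (-2.50) and from 69263481 to 69695834 (-1.22), and in positive tumor 3 on chromosome 7 from 31712666 to 33374559 (-1.80). Counted with such segments, short steps numbered 4, 3, 11 and 2 in the positive and 1, 9, 11 and 9 in the negative tumors (exact permutation p = 0.486). The locus called in the most tumors was a loss of genes of the Skint family, whose member Skint1 selects a class of gamma delta T cells of the mouse skin. On chromosome 4 from 112072017 to 113626923 (GRCm38, 54 bins) it was called as a focal event in positive tumors 1 and 3 and in negative tumors 2, 3 and 4.

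Relative to its flanks the Skint locus stood at -0.82, 0.13, -2.26 and -0.16 in positive tumors 1 to 4 and at 0.23, -0.54, -0.65 and -0.59 in negative tumors 1 to 4. The 5 tumors with the focal loss were the 5 with the Lkb1 deletion. Of the 3 Lkb1-intact tumors, positive tumors 2 and 4 held the locus inside longer losses, and negative tumor 1 had no loss there. A cluster of alpha-defensins, antimicrobial peptides of the gut, was lost on chromosome 8 from 21055048 to 21666732 in positive tumor 3 and negative tumors 2, 3 and 4. Relative to flanks it stood at -0.74, -0.88, -1.31 and -0.67 in the positive and -0.67, -1.53, -1.42 and -1.37 in the negative tumors, so it was low also where it was not called. Of the 10 loci 9 were called as focal events in no Lkb1-intact tumor, but such tumors could stand low without a call. At a secretoglobin cluster on chromosome 7, called in negative tumors 3 and 4, Lkb1-intact positive tumor 4 and negative tumor 1 stood at -0.82 and -0.72 relative to flanks. The tenth, a loss of vomeronasal receptor genes on chromosome 7 from 20509618 to 23278900, was called in positive tumor 4 and negative tumor 2. Why these loci recur was not tested.

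Focal events that overlapped no focal event of another tumor are called private here. They numbered 1, 2, 2 and 1 in the positive tumors and 1, 0, 1 and 2 in the negative tumors. The measure was chosen after the shared loci were seen (exact permutation p = 0.657). Longer events of other tumors were not compared, and several covered a private event in the same direction. The highest event of all was private. Negative tumor 4 had a gain at a log2 of 1.65 on chromosome 15 from 60014867 to 61990374, which holds Myc, the transcription factor amplified in many serous carcinomas, and Fam84b. It rests on 5 bins and lay inside the whole-chromosome gains of positive tumors 1 and 4. The longest private loss of a negative tumor was in negative tumor 3, on chromosome 7 from 127863048 to 132486982 at -0.82 over 165 bins. It was the only private event of that tumor, and it lay inside the chromosome 7 loss of positive tumor 3 (-0.46). In positive tumor 1 the private event was a gain of 4.36 Mb with Pard3, a cell polarity gene, and Disc1 (0.37). Positive tumor 2 had a loss with Crebbp, a histone acetyltransferase, and Rbfox1 (-0.32), which lay inside the chromosome 16 losses of negative tumors 2 and 4. Positive tumor 3 had 2 private events, among them a gain at the start of chromosome 15, where the other positive tumors held longer gains. Keratin-associated genes were lost on chromosome 11 in positive tumor 2 and on chromosome 16 in positive tumor 4. These keratin-associated losses were private among focal events only. The chromosome 16 loss lay inside longer called losses of positive tumor 2 (-0.67) and negative tumors 2 and 4 (-0.26 and -0.24). The chromosome 11 loss lay inside a longer called loss of positive tumor 3 (-0.42). Stretches of 13 bins at least 0.6 below their segment overlapped the one on chromosome 16 in positive tumors 1 and 2. Such a stretch also overlapped the one on chromosome 11 in negative tumor 1.

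**Figure D3:**
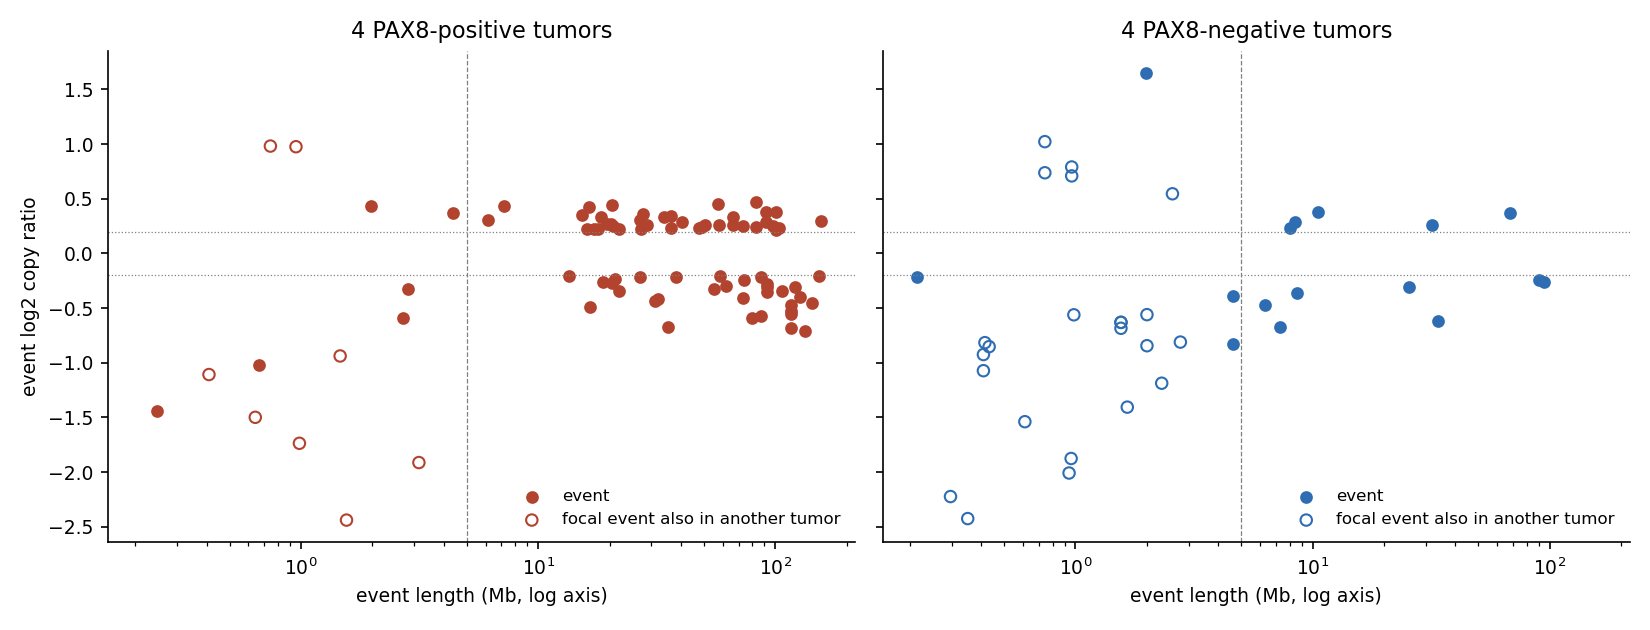
Length of each event (Mb, log axis) against its log2 copy ratio in positive (left) and negative (right) tumors, where open circles are focal events also found in another tumor, the dashed line is at 5 Mb and dotted lines are at 0.2 and -0.2. Long events of both groups stay between -0.70 and 0.47, and the deepest and highest values belong to focal events.

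Positive tumors had longer events but their events were not detectably deeper. The length-weighted mean log2 of lost segments was -0.49, -0.41, -0.40 and -0.26 in positive tumors 1 to 4 and -0.39, -0.38, -0.86 and -0.30 in negative tumors 1 to 4. The groups overlapped (exact permutation p = 0.686), and negative tumor 3, whose lost length is 0.504% of bases, stood lowest. Gained segments averaged 0.31, 0.30, 0.31 and 0.27 in the positive tumors and 0.28, 0.76 and 0.35 in negative tumors 2, 3 and 4, with none in negative tumor 1 (exact permutation p = 0.114, n = 4 and 3).

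Segments past 0.5 or below -0.5 covered 14.8%, 5.31%, 1.94% and 0.0169% of bases in the positive tumors and 0%, 1.99%, 0.529% and 0.489% in the negative tumors. Positive tumor 1 led through its losses of chromosomes 8, 12, 13 and 18, and positive tumor 4 stood below 3 of the 4 negative tumors (exact permutation p = 0.229). Across events over 5 Mb the median size of the log2 change was 0.32, 0.30, 0.32 and 0.23 in positive tumors 1 to 4, and 0.29 and 0.37 in negative tumors 2 and 4. A log2 ratio shrinks with the share of unaltered cells in a sample, and a smaller share of altered cells and a smaller change per cell cannot be told apart here.

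The highest segment was at 0.44, 0.45, 0.98 and 0.45 in positive and at 0.02, 1.02, 0.79 and 1.65 in negative tumors (exact permutation p = 0.514). At 2 times the penalty the difference turned from -0.29 to 0.35 (exact permutation p = 0.0286). The lowest was at -2.50, -2.16, -4.56 and -1.91 in positive and at -0.39, -2.54, -2.42 and -2.42 in negative tumors (exact permutation p = 0.514). The groups overlapped in both at the penalty used.

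In 2 stretches all 4 positive tumors were past the threshold and all negative tumors short of it, and together with the Skint locus they are all the sequence called in 4 of 4 positive tumors, 0.0969% of bases for gains and 0.213% for losses. The first was lost, on chromosome 5 from 54086041 to 64960097 (10.9 Mb, 71 bins), where the log2 was -0.26, -0.31, -0.43 and -0.43 in positive tumors 1 to 4 and -0.03, 0.01, -0.01 and -0.05 in negative tumors 1 to 4. It holds Pcdh7, a protocadherin of cell adhesion, Arap2, which switches off Arf GTPases, and Tbc1d1, a regulator of glucose transporter traffic. The segments that hold Pcdh7 had different lengths, 21.0, 89.9, 107 and 31.1 Mb in positive tumors 1 to 4, and only their overlap is common.

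The second was gained, on chromosome 15 from 3268548 to 5244187 (1.98 Mb, 55 bins), at 0.41, 0.42, 0.44 and 0.26 in positive tumors 1 to 4 and 0.05, 0.10, 0.01 and 0.02 in negative tumors 1 to 4. It lies at the start of the measured chromosome and holds Ghr, the growth hormone receptor, Oxct1, an enzyme of ketone body use, and Plcxd3. In positive tumors 1 and 4 it was part of a gain of the whole chromosome, in positive tumor 2 of a gain of 34.1 Mb, and in positive tumor 3 it was a focal gain by itself. Both stretches, like the genes picked out in them, were selected with their values in view and carry no test of their own.

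Gene by gene, no difference between the groups passed the test. Of 3795 genes with at least 4 bins, 0 (0%) were lower and 0 (0%) higher in positive tumors at a Benjamini-Hochberg adjusted p under 0.05 in limma, and 309 (8.14%) had an unadjusted p under 0.05. A robust prior or a term for Lkb1 also gave 0. In 5 Mb windows 0 of 536 passed in either direction (0%) and 50 (9.33%) had an unadjusted p under 0.05. For whole chromosomes 0 of 20 passed (0%) and 2 (10%) had an unadjusted p under 0.05, chromosomes 13 and 17. The chromosome 13 median differed by -0.35 with an SE of 0.10 (limma adjusted p = 0.114), and that of chromosome 17 by 0.18 with an SE of 0.08 (limma adjusted p = 0.395).

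Leaving out positive tumor 4, the positive tumor without the chromosome 13 loss, changed this. Without it limma called 115 of 3795 genes lower and 12 higher, at adjusted p-values down to 0.0315. Of the lower genes, 114 were among the 164 on chromosome 13, so they share 1 chromosome-wide loss and are not independent. Limma also called 23 of 536 windows lower and 9 higher, and chromosome 13 at a difference of -0.47 (limma adjusted p = 0.000809). Without any other single tumor limma called 0 genes.

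Genes whose 4 positive tumors all lay below the 4 negative ones numbered 91 (2.4% of genes tested), and genes whose positive tumors all lay above numbered 61 (1.61%), together 4.01%. They are described here without a test. Of 164 genes on chromosome 13, 38 were lower and 0 higher. Chromosome 5 held 16 lower, chromosome 15 held 19 higher, chromosome 17 held 17 higher and chromosome 3 held 11 higher, and none was found on chromosomes 16, 19 and X. The lower genes fell into 27 blocks of neighbours less than 10 Mb apart and the higher genes into 17.

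A gene's median over a few bins is noisier than its segment, and the segment levels gave fewer genes. By the level of the segment that holds it, 74 genes were lower (1.95%) and 30 higher (0.791%) without overlap, all of them on chromosomes 5, 13, 15 and 17. Genes that separated by both measures numbered 48, which is 31.6% of those by gene bins and 46.2% of those by segments. With all 4 positive tumors past the threshold as well, 11 remained, 6 on chromosome 5 and 5 on chromosome 15, in the stretches above.

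**Figure D4:**
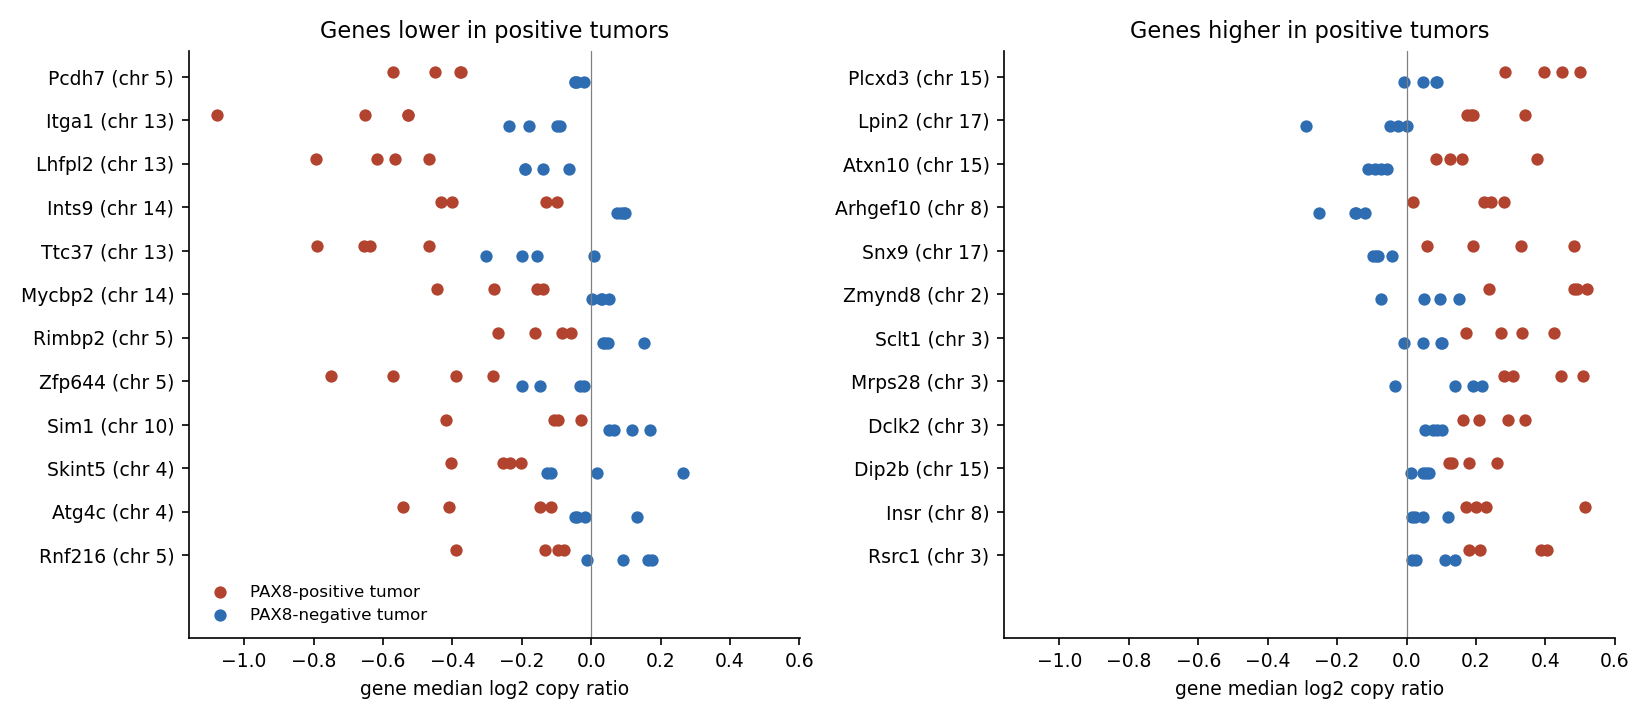
Gene medians of the log2 copy ratio in each tumor, for the 12 genes with the widest gap in each direction (at least 10 Mb apart), positive tumors in red and negative tumors in blue. Pcdh7 on chromosome 5 and Plcxd3 on chromosome 15 stand at the head of the lower and higher genes.

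The widest gap was at Pcdh7 (22 bins), at -0.38, -0.37, -0.45 and -0.57 in positive tumors 1 to 4 and -0.05, -0.04, -0.02 and -0.05 in negative tumors 1 to 4. Its difference was -0.40 with an SE of 0.10 (limma adjusted p = 0.384). Among higher genes Plcxd3 (11 bins) led, at 0.45, 0.40, 0.50 and 0.28 in positive and 0.08, 0.05, -0.01 and 0.09 in negative tumors, a difference of 0.35 with an SE of 0.10 (limma adjusted p = 0.384).

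On chromosome 13 the lower genes included Itga1, the integrin alpha 1 subunit, Ttc37, part of a helper complex of RNA decay, Lhfpl2 and Rasa1. Rasa1, a GTPase-activating protein that switches off RAS, stood at -0.55, -0.50, -0.54 and -0.36 in positive and -0.16, -0.05, -0.04 and -0.19 in negative tumors. The segment that holds it was at -0.16 in positive tumor 4, closer to 0 than the gene's 4 bins. On the higher side Zmynd8, a chromatin reader that is amplified with its chromosome arm in human cancers, stood at 0.48, 0.49, 0.52 and 0.24 in positive and 0.15, -0.07, 0.05 and 0.10 in negative tumors. Its segment in positive tumor 4 was at -0.06, so the separation there rests on the gene's 6 bins. The remaining named genes in that figure had gaps between 0.04 and 0.17, or between -0.17 and -0.07. Among them were Ints9 of the Integrator complex, the ubiquitin ligase Mycbp2, the phosphatidate phosphatase Lpin2, the centriole gene Sclt1 and Insr, the insulin receptor. By the level of their segments the groups overlapped at each of these. At Ints9, for example, the segment was at 0.06 in positive tumor 3 and at -0.11 in negative tumor 2.

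None of the genes with known roles in this cancer that were tested was called. Over all genes tested 2.4% lay lower and 1.61% higher in all positive tumors, or 4.01% in either direction. No list was tested against these shares. The median difference, positive minus negative, over all 3795 genes was -0.03. Of 26 tumor suppressors of serous carcinoma 15 had at least 4 bins, with a median difference of -0.09. Of these, 0 passed limma in either direction, and 1, Nf1, lay lower in all positive tumors. Of 34 amplified oncogenes 11 had enough bins, with a median of 0.09 and 0 limma calls, and 2 lay higher in all positive tumors, Zmynd8 and Met, a receptor kinase. Met stood at 0.21, 0.00, 0.05 and 0.12 in positive and -0.09, -0.02, -0.01 and 0.00 in negative tumors, a gap of 0.005 that is below the noise of a bin in every tumor.

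Homologous recombination and Fanconi genes had a median difference of -0.10 over 15 genes, of which 0 passed limma and 0 separated the groups. Fancc, on chromosome 13, had the most negative difference of that list, -0.30 (limma adjusted p = 0.519), and Polq, on chromosome 16, the most positive, 0.21 (limma adjusted p = 0.655). Spindle checkpoint genes (8 measured, median -0.06), cell cycle genes of the G1 to S step (6, median -0.03) and genes of fallopian tube identity (6, median 0.01) likewise had 0 calls and 0 that separated. RAS-MAPK genes (14, median 0.03) had 0 calls, with Nf1 and Rasa1 lower and Met higher in all positive tumors. PI3K, mTOR and LKB1 genes (19, median -0.06) had 0 calls. Prkaa2, a catalytic subunit of the AMP-activated kinase downstream of LKB1, was lower over its 4 bins, at -0.23, -0.52, -0.33 and -0.22 against 0.09, -0.16, 0.00 and -0.16. By segment level the groups overlapped there, at -0.17 and -0.14 in positive tumors 1 and 3 and -0.18 in negative tumor 2. Of 30 long genes at fragile sites 0 were called, and 1, Magi1, was lower in all positive tumors with a difference of -0.12 (limma adjusted p = 0.73). Its segment levels overlapped too, at 0.05 in positive tumor 1 and -0.03 in negative tumor 1.

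Nf1, a tumor suppressor that switches off RAS, stood lower over its last bins than over its first in positive tumor 4. Over its 13 bins it stood at -0.25, -0.15, -0.56 and -0.71 in positive and -0.05, -0.14, -0.15 and -0.12 in negative tumors, and the gap between the groups was -0.002. In positive tumor 4 the 6 bins from 79339693 to 79451347 on chromosome 11 had a median of -0.11, and the 7 bins from there to 79581612 a median of -0.84. The low level went on through the 6 bins of the next gene, Rab11fip4, at -0.70. The split inside Nf1 was placed where it best divides the gene's bins in positive tumor 4, so these medians are no test of a step. Single bins ranged from -0.44 to 0.12 before the split and from -1.35 to -0.37 after it, through Rab11fip4, so the 2 sides overlapped. Over the 13 bins from the split through Rab11fip4, 247 kb, positive tumors 1, 2 and 3 stood at -0.12, -0.08 and -0.45. The negative tumors stood no lower than -0.09 there. The stretch was not made a segment at the penalty used or at the lower one tried, and was noticed after the values were seen. Stretches of 13 bins at least 0.6 below their segment numbered 9, 8, 10 and 11 in positive tumors 1 to 4. In negative tumors 1 to 4 they numbered 11, 5, 1 and 1. The count of positive tumor 4 includes the stretch at Nf1. Other stretches lay at loci low in several tumors. The alpha-defensin cluster of chromosome 8 held one in positive tumors 1, 2 and 4 and negative tumor 1. The counts therefore do not tell how rare a stretch like that at Nf1 is.

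Chromosome 11 also held the 2 places where long segments ended in more than 2 tumors, with steps of any size counted. Genes within 250 kb of a boundary between segments over 5 Mb in 3 tumors lay in 2 places. The first ran from 69326258 to 69837784 and holds Trp53, the gene of p53. The second ran from 101279203 to 101599314 and holds Brca1, a gene of homologous recombination. The tumors were positive tumors 3 and 4 and negative tumor 2 at both places. In negative tumor 2 the steps were 0.14 and 0.16, below the 0.2 that counts as a breakpoint above. Steps of at least 0.2 were found at both places in positive tumors 3 and 4 alone. At Trp53 all 3 boundaries lay between the same bins, with one bin ending at 69580255 and the next starting at 69580360. At Brca1 they lay 0, 67.6 and 147 kb from the gene in those 3 tumors. Of 20763 genes, 705 (3.4%) lay within 250 kb of such a boundary in at least 1 tumor, and 78 (0.376%) in at least 2. There were 47 genes (0.226%) that lay that close in at least 3 tumors, all of them in these 2 places.

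**Figure D5:**
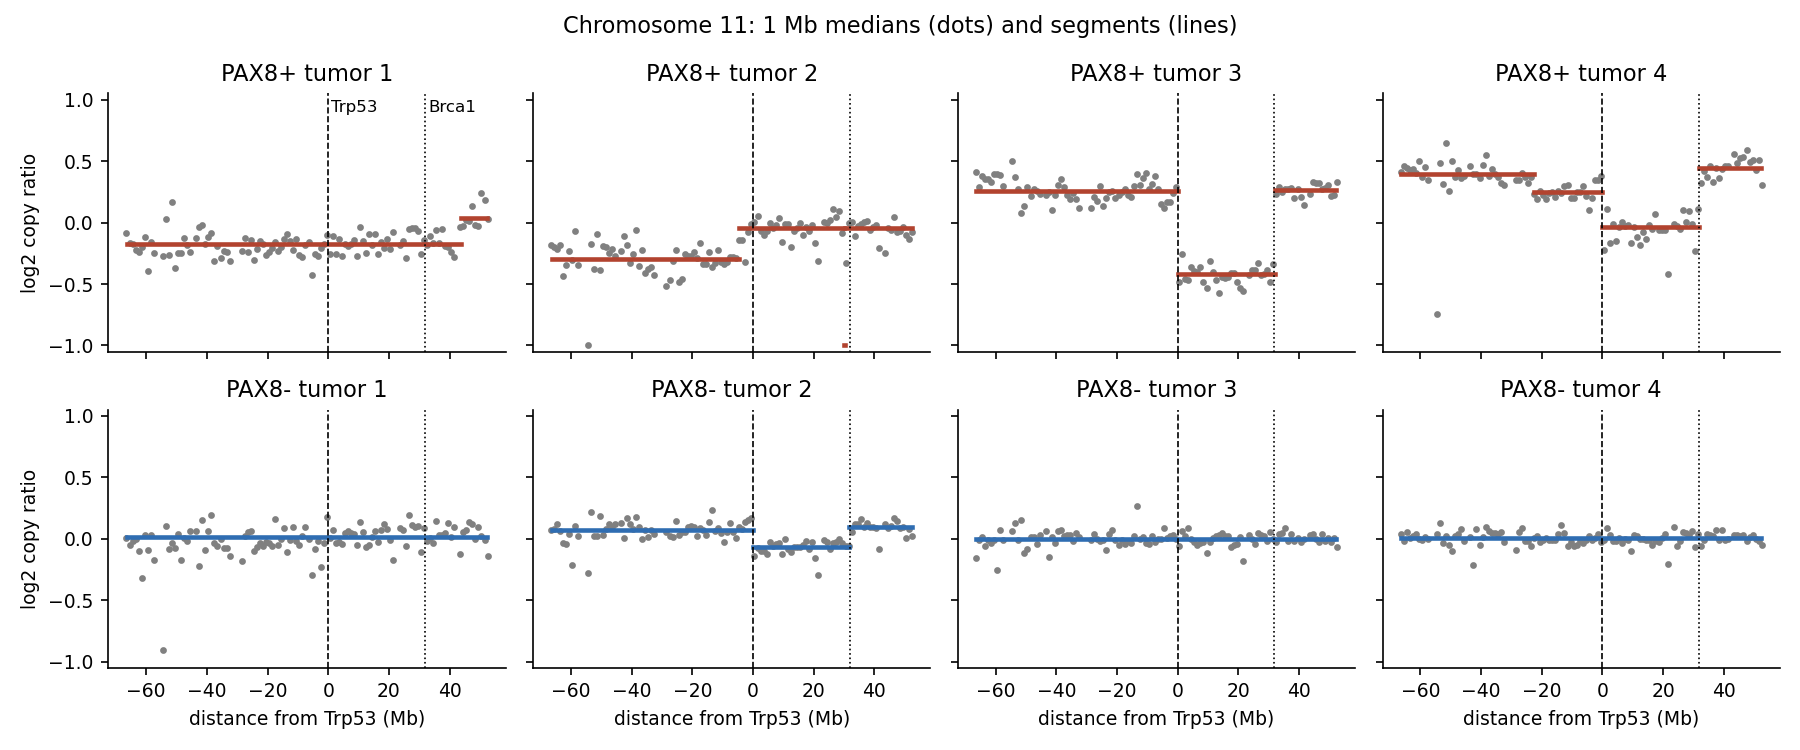
Log2 copy ratio along chromosome 11 by distance from Trp53 (Mb) in each tumor, with medians of 1 Mb as dots, segments as lines, Trp53 dashed and Brca1 dotted, and values below -1 drawn at -1. In positive tumors 3 and 4 and in negative tumor 2 the stretch between the 2 genes lies below both flanks.

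Between the 2 genes, a stretch of 31.9 Mb and 1167 bins, the log2 minus the mean of the sides was -0.05, 0.13, -0.69 and -0.42 in positive tumors 1 to 4 and 0.03, -0.15, -0.01 and -0.01 in negative tumors 1 to 4. In positive tumor 3 the stretch stood at -0.42 with sides of 0.26 and 0.27, and in positive tumor 4 at -0.04 with sides of 0.33 and 0.45. In negative tumor 2 it stood at -0.06 with sides of 0.08 and 0.10. The labels name Lkb1 as the edited gene, and the comparison of boundaries with other genes was made after they were seen.

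Genes that the design or the disease brings to mind did not separate the groups themselves. Pax8 (3 bins) stood at -0.07, 0.21, -0.16 and 0.48 in positive and 0.03, -0.12, 0.20 and 0.04 in negative tumors (exact permutation p = 0.686), so the label was not mirrored in the copy number of the gene. Stk11 (1 bin) stood at -0.02, 0.16, -0.71 and -0.08 in positive and 0.03, 0.10, -0.05 and -0.37 in negative tumors (exact permutation p = 0.714). The 2 lowest values were in Lkb1-deleted tumors. That of positive tumor 3 lay in a loss of the whole of chromosome 10 at -0.40, with the bins around Stk11 at -0.36. In negative tumor 4 the bins around it stood at 0.02. Lkb1-deleted positive tumor 1 and negative tumors 2 and 3 lay within the range of the Lkb1-intact tumors, -0.08 to 0.16. A bin of this size cannot show a small edit. Trp53 (1 bin) and Brca1 (3 bins) gave exact permutation p-values of 0.714 and 0.943.

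Of the 20 measures compared, 8 were at the smallest exact permutation p of 0.0286 and 0 had an adjusted p under 0.05. Splitting only within the Lkb1 labels gave the same differences, with an exact permutation p of 0.0333, the smallest of 30 splits, for the altered, gained and lost shares, the regional and chromosome-wide shares, the number of chromosome-wide events and the spread of chromosome levels. The tumors carry separate numbers in the labels, whose endings fall into 4 sets of unstated meaning. Within the 2 sets that hold both PAX8 groups, the altered share was 36.3 percentage points higher in 2 positive tumors than in 1 negative tumor, and 38.4 higher in 1 than in 1. Each of the other sets held a single PAX8 group. P-values measure the spread between these 8 tumors.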

How the data were processed

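Low-coverage whole genome sequencing of 8 tumors was compared by PAX8 label, 4 against 4. The submitters' processing notes name BWA, Picard and the build GRCm38 (mm10), and no source used here names the tool that binned the reads. Per the file headers, the authors deposited for every bin its log2 copy ratio, against a reference that is likewise not given. The depth (a signal of coverage) and the weight (a score, used in 1 alternative) of a bin were also deposited. Bins of depth 0 (7 to 50 per tumor) were left out.

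Each chromosome was split into segments of at least 5 bins by least squares, with a penalty of 20 times the noise variance times the natural log of the number of bins, and bins capped at 3 noise SDs from a running median of 9 bins. The penalty was chosen after segment counts and altered shares at 3 values were seen. A gene's level is the median of the bins that carry its symbol and overlap its RefSeq body (GRCm38.p6), for 20763 positioned genes, of which 3795 have at least 4 bins. Overlapping genes share bins, and gene names that spreadsheet software had turned into dates are not named. Intervals from counting are not given, since the files hold no read counts.

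Measures were tested by exact two-sided permutation over 70 splits with Benjamini-Hochberg adjustment over 20 measures, of which 3 were chosen after seeing the data. Genes, 5 Mb windows and chromosomes were tested with limma 3.58.1 in R 4.3.3, adjusted over each whole table. Named genes are those without overlap between the groups and with the widest gap (up to 12 in each direction, at least 10 Mb apart), Pax8, Stk11, Trp53 and Brca1, the members of 9 lists with the largest difference or that separate the groups, and genes in the highest and lowest focal event of each tumor. Some genes that the rule names are not reported here. The members and lists were chosen with earlier results of these data known. The segmentation and the limma fit were tested on simulated data. Alternatives were other thresholds, penalties, size limits, scalings, bin filters and gene filters, splits within Lkb1 labels and each tumor left out. Python 3.11.15, numpy 2.4.6, pandas 2.3.3, scipy 1.17.1, numba 0.67.0 and matplotlib 3.10.9 were used.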

Additional observations from a re-analysis of the deposited data

Results flagged for a closer look

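In groups of 4, a single tumor is named here when the gap to its nearest neighbour makes up most of the group's range, by Dixon's criterion. Chance names about 1 in 20 groups, and 13 of 154 checks did.

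Among positive tumors, tumor 4 stood low in the altered share of 1 Mb windows (34.9%). Positive tumor 3 stood high in the number of focal events (8) and in its highest segment (0.98). Positive tumor 2 stood high in the regional share (24.7%). Among negative tumors, tumor 3 stood high in the focal share (0.529%) and low in the mean log2 of lost segments (-0.86), and tumor 1 stood high in its lowest segment (-0.39).

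Among named genes, negative tumor 1 stood high at Rimbp2 (0.15) and low at Lpin2 (-0.29). Positive tumor 3 stood high at Lpin2 (0.34) and low at Esr1 (-0.25), the estrogen receptor gene. Positive tumor 4 stood low at Zmynd8 (0.24), and positive tumor 1 stood high at Insr (0.51).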

How the results depend on the processing

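Values are differences, positive minus negative. The altered and gained shares kept their direction and p at the smallest possible value in every alternative run. The altered share differed by 19.1 to 50.6 percentage points over other settings and by 35.0 to 39.0 with 1 tumor left out.

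With runs of 1 Mb windows in place of segments, the differences were 3.25 chromosome-wide events (exact p = 0.171), a chromosome-wide share of 11.96 points (exact p = 0.143), 33.5 regional events (exact p = 0.0286), 31.2 focal events (exact p = 0.4), a focal share of 3.74 points (exact p = 0.143) and 0.0745 in the log2 of the highest segment (exact p = 0.771). Regional events differed by 9 at a threshold of 0.1 (exact p = 0.0286), and the regional share by 5.01 points at a threshold of 0.3 (exact p = 0.0857). With the threshold at 3 noise SDs the regional share differed by 5.91 points (exact p = 0.0857) and the lost share by 13.3 points (exact p = 0.0857). At 2 times the penalty the differences were 8.21 points in the regional share (exact p = 0.0571), 0.0661 points in the focal share (exact p = 0.6), 0.35 in the highest segment (exact p = 0.0286) and 0.5 in the number of steps at short segments. Private focal events differed by -1.5 at 0.5 times the penalty (exact p = 0.343) and by -0.25 with focal events up to 10 Mb (exact p = 1). At that size limit, breakpoints between longer segments differed by 12 (exact p = 0.0286). The causes were not tested.

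Leaving out 1 tumor gave differences of 6.31 to 12.05 points in the regional share (exact p = 0.0286 to 0.0857). The lost share differed by 17.8 to 22.9 points (exact p = 0.0286 to 0.0571) and the focal share by -0.120 to 0.0182 points. Regional events differed by 4.17 to 9.17, breakpoints between segments over 5 Mb by 9.42 to 14.4 and private focal events by -0.5 to 0.667. The mean log2 of lost segments differed by -0.0301 to 0.156 and the spread of chromosome levels by 0.152 to 0.199. Regional events passed the threshold without positive tumor 3 (9.17), as did the breakpoints (14.4).

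Genes lower without overlap numbered 443 of 20791 genes of at least 1 bin and 41 of 1544 of at least 8 bins. Genes higher numbered 340 and 19 of the same totals, as more or fewer genes were counted. By segment level 30 of 3795 were higher. With 1 tumor left out, 112 to 293 of 3795 genes were lower and 73 to 238 higher. Fewer tumors make a lack of overlap easier to meet by itself. In these fits limma called 0 to 127 of 3795 genes, 0 to 32 of 536 windows and 0 to 1 of 20 chromosomes. All counts above 0 came without positive tumor 4.

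The difference at Meis1 lay between -0.194 and 0.0208 with 1 tumor left out and at Esr1 between -0.0183 and 0.146, and at Esr1 it was -0.00534 with Lkb1 as a term, none of them a limma call. The segment level of genes, the bin weight filter and the measures of private focal events, short steps and breakpoints between long segments were chosen after seeing the data. No paired analysis was made, since the replicate numbers follow the order of the samples and pair no tumors, and the number endings have no stated meaning. Splitting only within the number endings leaves 6 splits, and the altered share and the number of chromosome-wide events gave the smallest exact p these allow, 0.167. Depth limits single bins, and with 4 tumors a group an adjusted p under 0.05 would need 12 of the 20 measures at the smallest p.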
